A study of Gallus gallus with 16 samples.

Results

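The livers compared here were those of 8 male broiler chickens whose sample titles carry a number above 25 and those of 8 whose titles carry a number up to 25, which makes 16 of 16 birds. Each of the 4 diets, named only as A, E, F and H in the labels, gave 2 birds to each side. The lower title numbers are 4 and 5 in A, 11 and 12 in E, 16 and 17 in F, and 21 and 22 in H. The upper numbers are 26 and 27, 36 and 37, 41 and 42, and 46 and 47 in the same order of diets. The labels used here do not say what a title number stands for, so the 2 sides are called the upper and the lower title block and nothing more is read into them. Birds are named by diet and replicate, with replicates 1 and 2 in the lower block and replicates 3 and 4 in the upper block, so that H3 and H4 are title numbers 46 and 47.

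The series title names essential oils and saponins as feed additives and their bearing on growth and protein digestion, but the labels do not tell which letter stands for which feed. All birds were broilers, chickens (Gallus gallus) bred for rapid growth and meat, all were male, and all livers were taken at day 21. Total liver RNA was hybridised to 1-colour arrays, which gave a log2 signal for each of 20804 features, and 12300 of these features stood for 11528 named genes.

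The liver of a growing chick makes most of the bird's fat, clears and forms glucose, secretes plasma proteins and growth factors, and burns fuel in dense mitochondria. In birds the liver, not adipose tissue, is the main site of fatty acid synthesis. Many of its genes follow feeding and the hour of the day through the circadian clock, a feedback loop in which CLOCK and ARNTL switch on the PER and CRY genes whose products hold them back. Interferon-induced genes such as MX1 form the cell's antiviral state and can differ from animal to animal.

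Array medians lay between 6.11 and 6.21, and single signals between 0.93 and 14.63. The hepatocyte markers, 13 of 14 measured, had a mean signal of 12.08 to 12.33 in the upper block and 12.16 to 12.28 in the lower, so that the labelled tissue's own markers were bright in all 16 samples. Arrays of the same block correlated at a mean r of 0.972 and arrays of different blocks at 0.965, and at 0.977 and 0.974 without H3 and H4. H3 and H4 stood apart, with a mean correlation with the other arrays of 0.948 and 0.946 against at least 0.966 elsewhere. The block differences are therefore given over 16 birds and again over 14 without these 2. The 2 diet H birds that remain then lie in the lower block, and the difference rests on diets A, E and F.

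The first principal component, the axis along which the arrays differed most, held 43.1% of the variance and separated the blocks in part. Its score was 21.1 ± 36.2 (SD, n = 8) in the upper block and -21.1 ± 22.5 (SD, n = 8) in the lower. An exact two-sided permutation of the blocks within diets gave p = 0.0216 and an adjusted p of 0.108 over 5 array measures, where 0.00154 was the smallest p possible. H4 at 73.2, H3 at 68.9 and F4 at 38.9 were the highest arrays, and the next was E1 of the lower block at 29.2. Over diets A, E and F alone the first component held 31.1% of the variance and gave an exact permutation p of 0.120, adjusted 0.301. Components 2 and 3, the mean correlation and the SD of an array gave adjusted p of 0.185 to 0.517 in the exact permutation test over 16 birds.

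**Figure D1:**
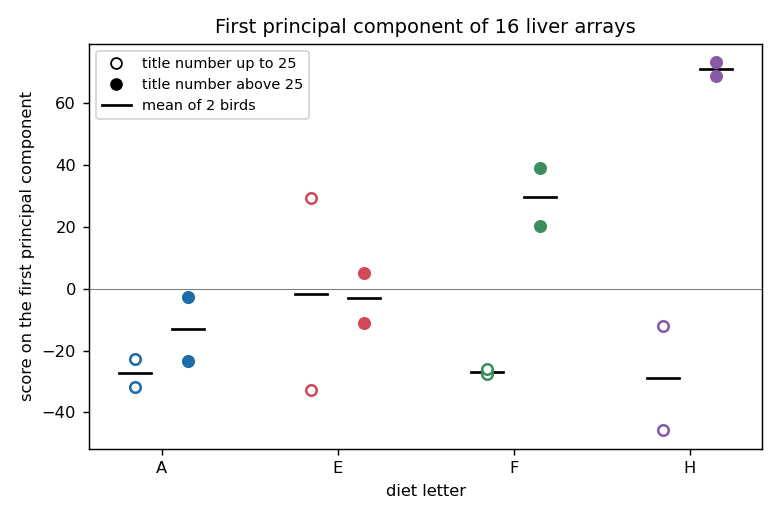
Score of each of the 16 liver arrays on the first principal component (y axis, no unit), by diet letter (x axis). Open circles are title numbers up to 25, filled circles title numbers above 25, and bars the mean of 2 birds; the filled circles of diet H lie at 68.9 and 73.2, and the open circle of E1 at 29.2 lies far from its diet partner.

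No feature passed the test of the upper against the lower block. With diet as a covariate, limma called 0 of 20804 features (0%) at an adjusted p under 0.05 over 16 birds, with a lowest adjusted p of 0.0615. At an unadjusted p under 0.05, 3466 features (16.7%) were higher in the upper block and 3100 (14.9%) were lower, and 3563 had an adjusted p under 0.1. The count of 0 moved with single birds: limma called 6427 features without E1, 1467 without A4, 1293 without E3, 237 without A2 and 2 without E4. With a mean for each diet and block in place of the additive model it called 4580 features. On fewer features it also made calls, 872 of those above the 20th percentile of mean signal and 1250 of the 11727 with a known genomic span, the last an alternative added after seeing the data.

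Without H3 and H4, limma again called 0 of 20804 features (0%), with a lowest adjusted p of 0.463. At an unadjusted p under 0.05, 1172 features (5.63%) were higher and 920 (4.42%) were lower. The median standard error of the difference was 0.139 over 16 birds and 0.145 over 14, while the differences became smaller. This error depends on the number of birds as well as on their spread. The median difference of all genes was 0.05 over 16 birds and 0.03 over 14, and 55.2% and 55.0% of all genes were higher in the upper block.

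The block difference was not of the same size in each diet. The median size of a gene's within-diet difference was 0.152 in A, 0.163 in E, 0.311 in F and 0.539 in H. Across the 11528 genes, the differences of diets F and H, which share no birds, correlated at r = 0.801. Those of diet A correlated with F at 0.318 and with H at 0.339. Those of diet E did not go with any other diet, at -0.018 with A, -0.065 with F and 0.063 with H. The diet E difference has E1 as 1 of its 2 lower birds, which scored 29.2 on the first principal component against -32.6 for E2. The part of E1 in these r values was not tested. These r values are across genes, which are not independent replicates, and each describes 4 birds against 4. The same sign in all 4 diets was found for 3006 genes (26.1%).

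**Figure D2:**
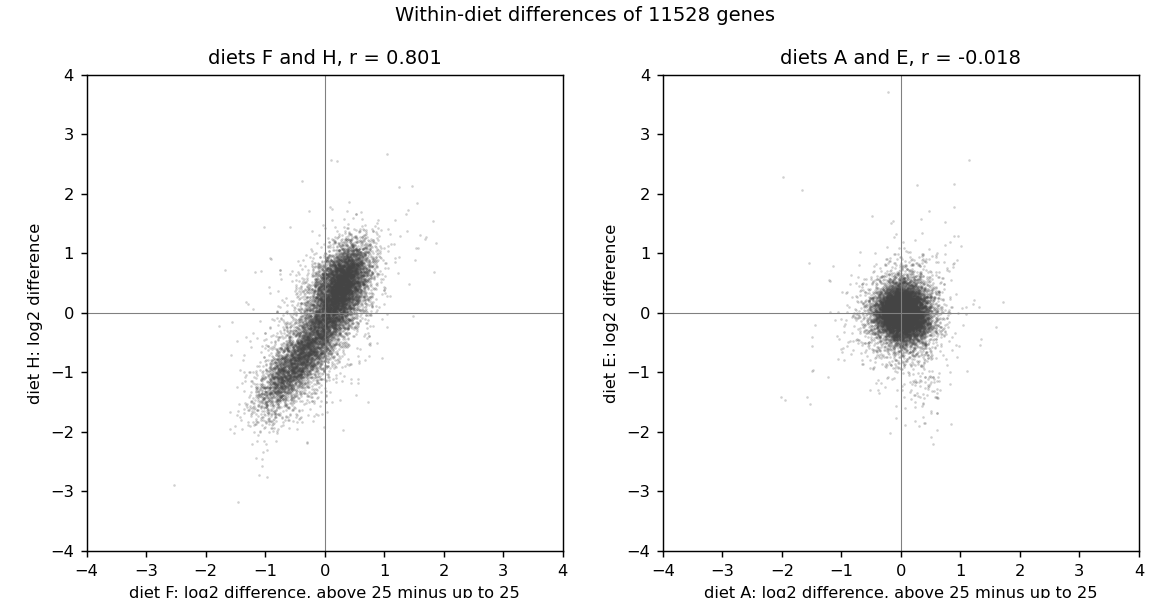
Log2 difference of each of 11528 genes within diet F (x axis) and diet H (y axis) on the left, and within diets A and E on the right; each point is a gene and each difference is the mean of 2 upper-block birds minus that of 2 lower-block birds. The points of diets F and H lie along a rising line at r = 0.801, those of diets A and E form a round cloud at r = -0.018.

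The test of whether the block difference depended on the diet called 2 of 20804 features (0.00961%) at an adjusted p under 0.05, and 5392 (25.9%) had an unadjusted p under 0.05. Over diets A, E and F it called 1 feature (0.00481%), which carries no gene name here, with 2268 (10.9%) at an unadjusted p under 0.05. Leaving out single birds moved the 16-bird count from 0 to 3433, the latter without E2.

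Both called genes were higher in the upper block in diets F and H and lower in A and E. MGP, matrix Gla protein, an inhibitor of calcification made by connective tissue and vessel cells, had an interaction at adjusted p = 0.0254 (limma). Its log2 signal was 7.48 and 7.47 in F3 and F4 against 5.56 and 5.64 in F1 and F2, and 7.88 and 7.87 in H3 and H4 against 6.65 and 6.73 in H1 and H2. In diet A it was 6.04 and 6.55 in the upper block against 6.70 and 6.68, and in diet E 6.69 and 6.72 against 7.13 and 6.95. The 4 upper birds of diets F and H were thus the highest of the 16 livers. The stellate cell and fibroblast markers, cells that also make matrix proteins, had a median block difference of -0.10 in diet A, 0.05 in E, 0.26 in F and 0.57 in H, and their part in this result was not tested. Without H3 and H4 the interaction of MGP over diets A, E and F had an adjusted p of 0.0945.

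SF3B5, a small subunit of the SF3b complex that recognises the branch point of introns, had an interaction at adjusted p = 0.0364 (limma). Its log2 signal was 8.48 and 8.66 in H3 and H4 against 7.18 in H1 and nearly the same in H2, and 7.63 and 7.68 in F3 and F4 against 7.16 and 7.45 in F1 and F2. It ran the other way in diet A, at 6.93 and 6.95 in the upper block against 7.47 and 7.51, and in diet E, at 7.18 and 7.15 against 7.76 and 7.57. The birds of the 2 blocks did not overlap within any diet. Its mean block difference was 0.17 ± 0.22 (SE) over 16 birds and -0.23 ± 0.14 over 14, and its interaction over diets A, E and F had an adjusted p of 0.407.

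Leaving out 1 bird took the adjusted p of MGP to between 0.00822, without A4, and 0.112, without E3, and that of SF3B5 to between 0.0168, without E2, and 0.213, without H2. Among the genes next in the interaction test, CHDH, the enzyme that turns choline into betaine, had 7.31 and 7.31 in F3 and F4 against 8.79 and 8.68 in F1 and F2, and 7.25 and 7.60 in H3 and H4 against 8.27 and 8.52. In diet A its upper birds lay higher, at 8.30 and 8.57 against 8.24 and 7.98. In diet E the blocks overlapped, at 8.26 and 8.29 against 7.98 and 8.32. The interaction of CHDH had an adjusted p of 0.0791 in limma. IPO13, a nuclear transport receptor, stood at 7.80 and 7.70 in H3 and H4 and at 6.07 to 6.76 in the other 14 livers, with an adjusted p of 0.0821. TMCC3 and RIPK3, which in mammals is a kinase of necroptosis, had adjusted p of 0.0718 and 0.0821. RIPK3 was 0.55 higher in the upper block in diet E and lower in the others, by -0.22 in A, -0.81 in F and still more in H, at 6.48 and 6.19 in H3 and H4 against 7.46 and 7.61.

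The 24 genes with the smallest p for the block difference, 12 in each direction, all had an adjusted p of 0.0615 in limma, so none passed. All 24 had the same sign in each of the 4 diets, and in all 24 the within-diet difference was largest in diet H. Their differences ran from 0.53 to 1.16 in size over 16 birds, which is 1.44-fold to 2.24-fold, and from 0.44 to 0.82 over 14 birds. Each of the 24 was smaller without H3 and H4, which had to follow, because the 14-bird difference averages diets A, E and F alone. The 24 were picked by their p over 16 birds, so their shared sign is not separate evidence. Across all features, the 8 upper birds and the 8 lower birds did not overlap for 38 (0.183%), 29 with higher and 9 with lower signals in the upper block. With 6 upper birds against 8 this held for 50 (0.240%), 40 higher and 10 lower.

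The 12 genes higher in the upper block are given by what each is known to do. NDUFS8, a core iron-sulfur subunit of mitochondrial complex I, had a lowest, median and highest log2 signal of 7.27, 7.86 and 8.62 in the upper block and 6.90, 7.08 and 7.47 in the lower. Only A4 of the upper birds lay under E1, the highest of the lower birds. The difference was 0.85 ± 0.14 (SE), or 1.80-fold, over 16 birds and 0.66 ± 0.14 over 14. RPS29, a protein of the small ribosomal subunit, had a difference of 0.72 ± 0.14 over 16 birds and 0.51 ± 0.12 over 14, and its within-diet difference was 0.20 in diet E and 1.33 in diet H.

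DERL3, which takes part in pulling misfolded proteins out of the endoplasmic reticulum, averaged 9.54 ± 0.26 (SD, n = 8) in the upper block and 8.78 ± 0.29 (SD, n = 8) in the lower, a difference of 0.76 over 16 birds and 0.61 over 14. AUP1, a protein of the endoplasmic reticulum and of lipid droplets in the same disposal route, averaged 8.45 ± 0.49 and 7.64 ± 0.24, and its difference went from 0.81 to 0.61. In AUP1 the blocks overlapped through A4 at 7.82, which lay under F1, E1 and H1 at 7.83 to 7.95. TMED3, which carries cargo between the endoplasmic reticulum and the Golgi, was noted after its values were seen, with a difference of 1.11 ± 0.21 over 16 birds and 0.78 ± 0.19 over 14. Its diet A birds hardly differed (0.14), while diet H differed by 2.12, with 10.45 and 10.46 in H3 and H4 against 8.39 and 8.27 in H1 and H2.

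Among enzymes, ASL, argininosuccinate lyase, which splits argininosuccinate into arginine and fumarate, had 6.02, 6.45 and 6.53 as the lowest, median and highest upper signal and 5.35, 5.73 and 6.15 in the lower block. A2 was the lower bird that reached into the upper block, and the difference was 0.64 over 16 birds and 0.59 over 14. PEMT, which makes phosphatidylcholine by methylating phosphatidylethanolamine, averaged 11.53 ± 0.31 against 10.77 ± 0.31 (SD, n = 8 each), a difference of 0.75 ± 0.14 over 16 birds and 0.64 ± 0.15 over 14. NMT1, which attaches myristate to proteins, differed by 0.53 ± 0.10 over 16 birds and 0.47 over 14, and the nucleotide phosphohydrolase ENTPD7 by 0.68 ± 0.12 and 0.59. The orphan receptor GPR27 differed by 0.79 ± 0.14 and 0.67.

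IGFALS, the liver-made subunit that holds insulin-like growth factors in circulating complexes, had blocks that did not overlap. Its lowest, median and highest signals were 9.98, 10.21 and 10.85 above 25 and 9.45, 9.64 and 9.89 up to 25. The difference was 0.63 ± 0.11 (SE) over 16 birds and 0.47 ± 0.10 over 14, and it was close in size in diets A (0.48), E (0.45) and F (0.47) but 1.13 in diet H. MYADML2 also had separate blocks, from 5.59 to 6.16 in the upper and from 5.04 to 5.56 in the lower, with within-diet differences of 0.61 to 0.74 and 0.63 ± 0.14 over 14 birds. KRT8, a keratin of simple epithelia, differed by 0.74 ± 0.13 over 16 birds and 0.61 over 14 and had an upper range of 8.59 to 9.46 and a lower range of 8.08 to 8.63, where A4 and A2 made the overlap.

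Among the 12 genes lower in the upper block were HMGCS1, GYS2, PANK1 and CYP4V2, which are metabolic enzymes. HMGCS1, the cytosolic enzyme that feeds acetyl-CoA into cholesterol synthesis, had 10.97, 11.50 and 12.04 as lowest, median and highest upper signal and 12.04, 12.30 and 12.82 in the lower block. The 2 blocks met at 12.04, in A3 and F2. Its difference was -0.83 ± 0.15 (SE) over 16 birds and -0.63 ± 0.14 over 14. GYS2, the liver's glycogen synthase, averaged 9.52 ± 0.31 in the upper block and 10.16 ± 0.25 (SD, n = 8 each) in the lower, a difference of -0.64 over 16 birds and -0.54 over 14. PANK1, which catalyses the first step of coenzyme A synthesis, averaged 10.28 ± 0.46 against 10.88 ± 0.19, and CYP4V2, a fatty acid hydroxylase, 9.71 ± 0.38 against 10.34 ± 0.24. Over 14 birds PANK1 differed by -0.44 and CYP4V2 by -0.55, against -0.61 and -0.64 over 16.

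Nuclear and signalling genes made up much of the rest. RBPJ, the DNA-binding protein of the Notch pathway, had 6.40, 7.31 and 8.05 as lowest, median and highest upper signal and 7.71, 8.28 and 9.21 in the lower block. Its 2 lowest livers were H4 and H3, and the overlap came from A3 and A4 at 7.91 and 8.05. The difference was -1.02 ± 0.19 over 16 birds, or 2.03-fold, and -0.72 ± 0.15 over 14. SUZ12, a subunit of the repressive Polycomb complex that methylates histone H3, differed by -0.71 ± 0.14 over 16 birds and -0.54 over 14. NSA2, which acts in the assembly of the large ribosomal subunit, differed by -0.69 ± 0.13 and -0.56, and CETN1, a centrin of the centriole, by -0.80 ± 0.15 and -0.61.

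Of the genes with a role in immunity or tissue remodelling, PLAU, the urokinase plasminogen activator, averaged 8.12 ± 0.41 in the upper block and 8.93 ± 0.39 (SD, n = 8 each) in the lower. It was the gene with the smallest p among those that were lower, and its difference of -0.81 ± 0.14 became -0.72 ± 0.16 over 14 birds. TLR7, an endosomal sensor of single-stranded RNA, differed by -0.82 ± 0.16 over 16 birds and -0.65 over 14, and PDCD1LG2, a ligand of the inhibitory receptor PD-1, by -0.90 ± 0.18 and -0.65. GCNT7, of a family of glycosyltransferases, differed by -1.16 ± 0.24 and -0.82 ± 0.21, with 6.28 in H3 as its lowest liver and 9.68 in A2 as its highest.

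**Figure D3:**
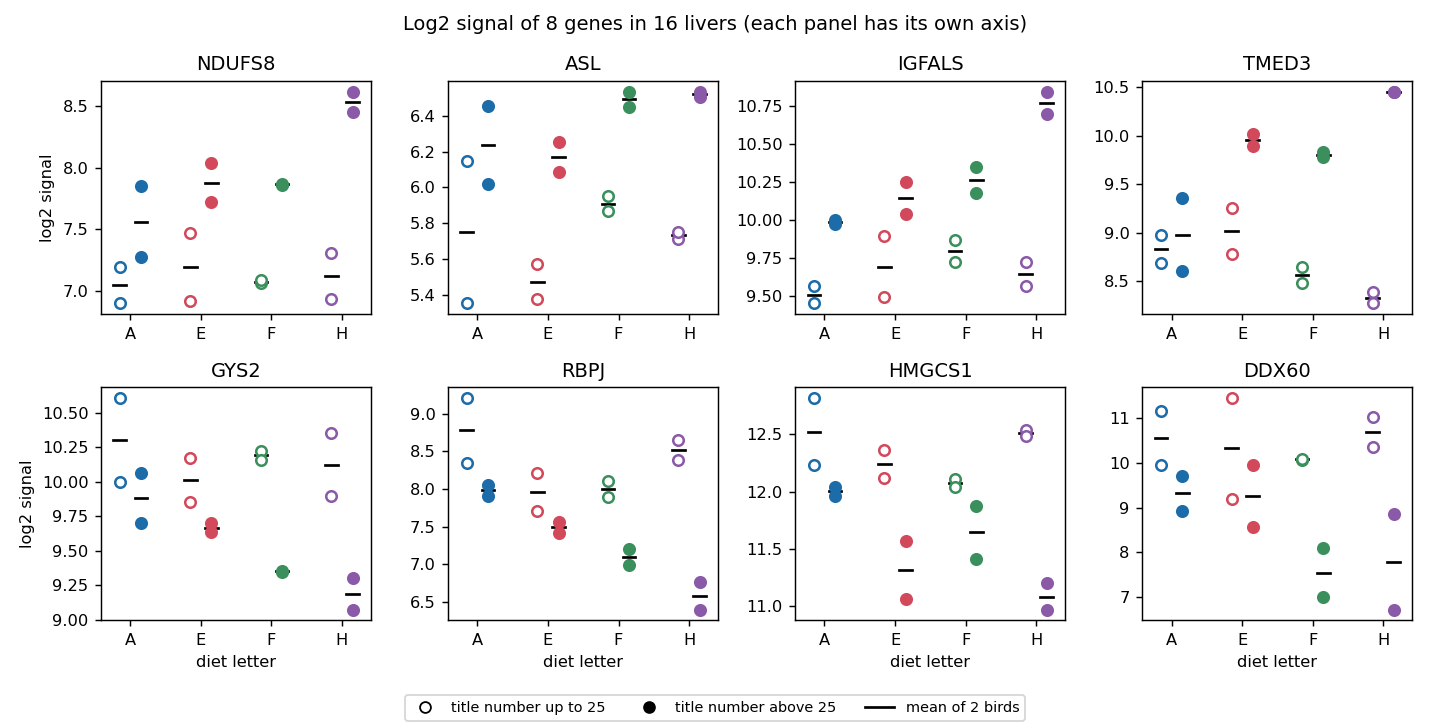
Log2 signal (y axes, a separate axis for each gene) of NDUFS8, ASL, IGFALS and TMED3 in the upper row and GYS2, RBPJ, HMGCS1 and DDX60 in the lower row, by diet letter (x axes). Open circles are title numbers up to 25, filled circles title numbers above 25, bars the mean of 2 birds; the gap between the circles is widest in diet H in each of the 8 panels.

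Without H3 and H4 the genes with the smallest p partly changed. TRPM8, SHMT1 and COX6C joined the 6 that were higher, and all 6 that were lower had also been among the 12 over 16 birds. SHMT1, which moves 1-carbon units between serine and glycine, ran from 11.03 to 11.81 in the 6 upper birds and from 10.51 to 10.99 in the 8 lower birds, with no overlap. Its difference of 0.58 ± 0.12 over 14 birds was close to the 0.54 ± 0.11 over 16, and H3 at 10.94 lay within the lower range. COX6C, a subunit of cytochrome c oxidase, differed by 0.42 ± 0.09 over 14 birds and 0.36 ± 0.08 over 16. TRPM8, known as the cold and menthol channel of sensory neurons, differed by 0.83 ± 0.17 over 14 birds and 0.67 ± 0.16 over 16 at a low signal of 3.79 to 5.27, and by 0.18 in diet H.

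Among the 11528 named genes, 22 had no overlap between 8 upper and 8 lower birds, 19 higher and 3 lower, beside 0.183% of all features. Because the 6 upper birds are part of the 8, these 22 had to be free of overlap over 14 birds too. The following were picked from these after their values were seen. PUF60 and SF3A1, proteins that help the spliceosome find the 3′ end of an intron, had upper signals of 8.32 to 8.53 and 8.16 to 8.64 against 7.96 to 8.25 and 7.90 to 8.11. SLC25A42, a carrier of coenzyme A into mitochondria, lay between 7.13 and 7.62 in the upper block and 6.73 and 7.07 in the lower. MAP1LC3B, the autophagosome protein LC3B, lay between 11.26 and 11.55 against 10.99 to 11.24. ACSF2, a mitochondrial acyl-CoA synthetase, lay between 10.47 and 10.91 against 9.95 to 10.46. The 3 that were lower were FRK, a Src-related tyrosine kinase, at 6.26 to 7.04 against 7.07 to 7.90, WDR1, which promotes actin filament disassembly, at 9.29 to 10.11 against 10.21 to 10.55, and NELL2 at 7.84 to 8.26 against 8.27 to 8.81. The differences of these genes over 14 birds lay between 0.25 and 0.36 for those that were higher, and were -0.57, -0.33 and -0.39 for FRK, WDR1 and NELL2.

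The 35 gene lists are described by their counts and medians, with no test, and no member of any list passed the adjusted p. Over 16 birds the list medians ran from -0.32 to 0.37, beside 0.05 for all genes. Without H3 and H4 they ran from -0.20 to 0.23, beside 0.03. Counts at an unadjusted p under 0.05 stand beside 16.7% higher and 14.9% lower among all features over 16 birds, and 5.63% and 4.42% over 14. For the lists with the largest medians, unmarked members were picked by the smallest p in the direction of the median. They do not stand for the members that went the other way. Of the core clock list, every measured gene is given.

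**Figure D4:**
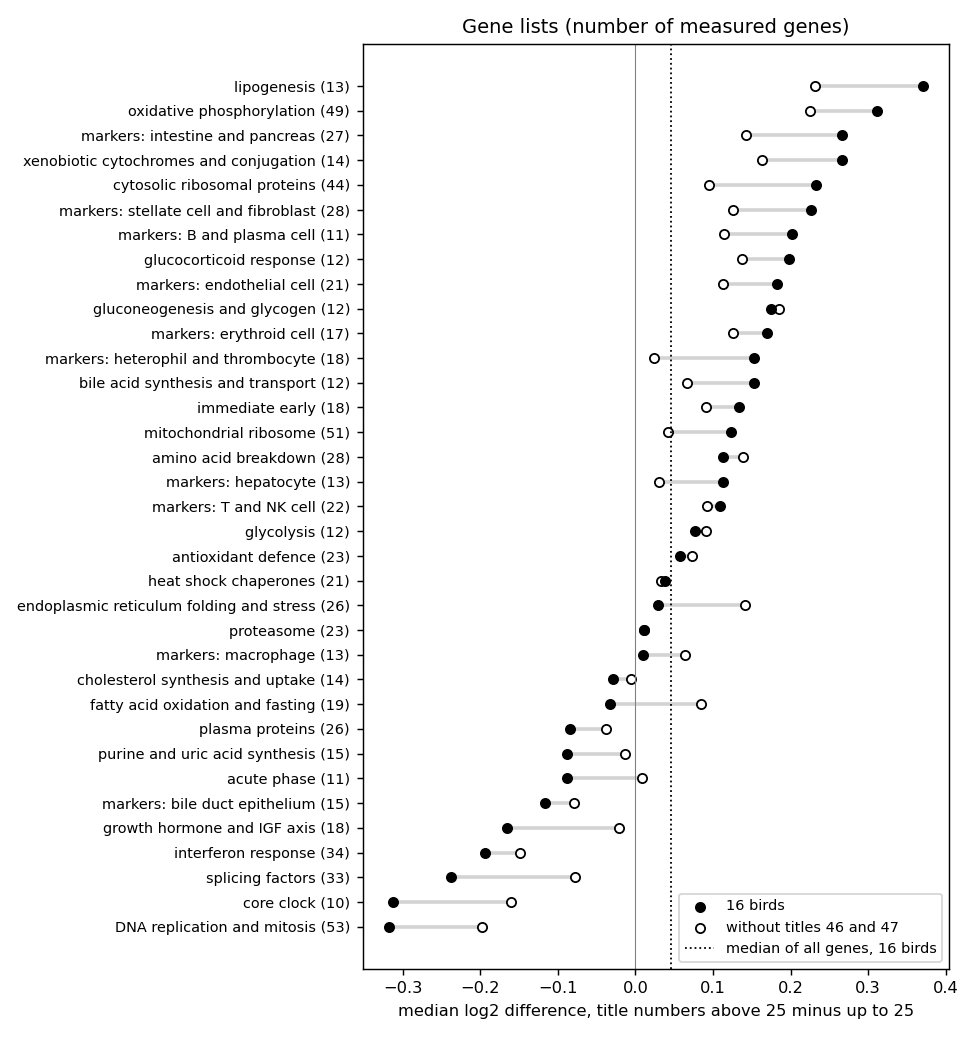
Median log2 difference between the upper and the lower title block (x axis) of the measured genes of each of 35 lists (y axis, number of genes in parentheses). Filled circles are 16 birds, open circles 14 birds without title numbers 46 and 47, and the dotted line the median of all genes; lipogenesis (0.37) and oxidative phosphorylation (0.31) lie farthest to the right, DNA replication and mitosis (-0.32) and the core clock (-0.31) farthest to the left.

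Genes of oxidative phosphorylation, which build the respiratory chain and ATP synthase, were higher in the upper block for 44 of 49, and 33 of them at an unadjusted p under 0.05, where 55.2% of all genes were higher and 16.7% of all features were higher at that threshold. Over 14 birds 46 of 49 were higher, 20 of them at an unadjusted p under 0.05, beside 5.63% of all features, and the median went from 0.31 to 0.23. The list's median was above 0 within each diet, at 0.10 in A, 0.24 in E, 0.34 in F and 0.58 in H. Its median deviation per bird ran from -0.10 in A4 to 0.52 in H4 in the upper block and from -0.24 to 0.02 in the lower, where A3 and A4 lay inside the lower range. UQCRQ and UQCRC2, subunits of complex III, differed by 0.61 ± 0.13 and 0.40 ± 0.09 over 16 birds and by 0.42 ± 0.13 and 0.31 ± 0.09 over 14. NDUFAB1, the acyl carrier protein bound to complex I, differed by 0.55 ± 0.12 over 16 birds and 0.39 ± 0.12 over 14 and had a narrow lower block of 7.28 ± 0.11 (SD, n = 8).

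Cytosolic ribosomal protein genes were higher for 42 of 44, 19 at an unadjusted p under 0.05 beside 16.7% of all features, with a median of 0.23. Over 14 birds 36 of 44 were higher, 3 at an unadjusted p under 0.05, a share close to the 5.63% of all features, and the median was 0.10. Within diets the median was -0.07 in A, 0.03 in E, 0.32 in F and 0.64 in H, near 0 in A and E and above 0 in F and H. The mitochondrial ribosome list, 51 genes, had medians of 0.12 and 0.04. RPL15, a protein of the large subunit picked after its values were seen, differed by 0.65 ± 0.14 over 16 birds and 0.44 ± 0.13 over 14.

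Lipogenic genes had the largest median of the 35 lists, 0.37, with 10 of 13 higher and 3 higher at an unadjusted p under 0.05, a share near the 16.7% of all features. Over 14 birds the median was 0.23, with 12 of 13 higher and 0 at an unadjusted p under 0.05. The diets did not share the direction: the median was 0.20 in A, 0.73 in E, -0.37 in F and 0.22 in H. SREBF1, the transcription factor that drives fat synthesis, averaged 8.16 ± 0.45 against 7.71 ± 0.28 (SD, n = 8 each), and its difference was 1.17 in diet H and 0.07 in diet E. It differed by 0.45 ± 0.17 over 16 birds but 0.20 ± 0.16 over 14. ACSS2, which makes acetyl-CoA from acetate, differed by 0.37 ± 0.18 over 16 birds and 0.42 ± 0.21 over 14. MID1IP1, which activates acetyl-CoA carboxylase, differed by 0.38 ± 0.13 over 16 birds and 0.28 over 14, and AGPAT2, an enzyme of triglyceride assembly, by 0.53 ± 0.22 and 0.23 ± 0.21. FADS1, a desaturase, differed by 0.22 ± 0.16 over 16 birds, 0.12 without E2, and 0.23 ± 0.19 over 14, and by 0.80 in diet E and -0.31 in diet F.

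The cholesterol list did not lean one way, with 6 of 14 genes higher, 8 lower and a median of -0.03 over 16 birds. Within it, values picked after they were seen ran against each other. INSIG1, which holds the sterol sensor in the endoplasmic reticulum, and STARD4, a sterol carrier, differed by -0.52 ± 0.16 and -0.69 ± 0.23, beside HMGCS1 at -0.83. LSS, lanosterol synthase, and SREBF2, the transcription factor of sterol synthesis, differed by 0.52 ± 0.17 and 0.41 ± 0.15. Over 14 birds these were -0.34, -0.59, 0.39 and 0.23 in the same order.

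Gluconeogenesis and glycogen genes had a median of 0.17 over 16 birds and 0.19 over 14. In both fits 8 of 12 were higher, beside 55.2% and 55.0% of all genes. At an unadjusted p under 0.05 in limma, 4 were higher and 1 lower over 16 birds, and 1 and 1 over 14. By diet the median was 0.09 in A, 0.11 in E, -0.06 in F and 0.07 in H. The glycogen synthase GYS2, described above, was lower in the upper block, by -0.64 over 16 birds. PPP1R3B, which targets a phosphatase to glycogen, ran from 9.60 to 10.65 in the upper block and from 9.32 to 10.48 in the lower, and A4 was the lowest of the upper birds. Its difference was 0.55 ± 0.18 over 16 birds and 0.48 ± 0.22 over 14. PCK1, the cytosolic enzyme that commits carbon to glucose, ran from 5.38 to 8.03 in the upper block and from 4.66 to 7.71 in the lower. A3, E3 and E4 were high at 7.95, 7.48 and 8.03, and so were F1 and H2 of the lower block at 7.71 and 7.21. Its difference was 0.99 ± 0.51 over 16 birds and 1.20 ± 0.60 over 14, with an adjusted p of 0.190 and 0.510 in limma. PCK2, the mitochondrial form, differed by 0.42 ± 0.14 over 16 birds and 0.25 ± 0.13 over 14, and TAT, which breaks down tyrosine, by 0.14 ± 0.11, 0.08 without F1, and 0.22 ± 0.12 over 14.

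The xenobiotic list, cytochromes and conjugating enzymes with their receptors, had a median of 0.27 over 16 birds and 0.16 over 14. Over 16 birds 8 of 14 were higher, a share near the 55.2% of all genes. Over 14 birds 10 were, beside 55.0%. At an unadjusted p under 0.05 in limma, 4 were higher and 1 lower over 16 birds, and 2 and 1 over 14. By diet the median was 0.23 in A, -0.001 in E, 0.28 in F and 0.41 in H. NR1I3, a nuclear receptor that switches on drug metabolism, differed by 0.56 ± 0.15 over 16 birds and 0.38 ± 0.15 over 14. SULT1E1 and SULT1B1, sulfotransferases, differed by 0.55 ± 0.17 and 0.33 ± 0.14 over 16 birds and by 0.32 and 0.26 over 14. The gene with the symbol SULT, picked after its values were seen, ran the other way. It differed by -1.12 ± 0.30 over 16 birds and -0.67 over 14, and by -2.45 in diet H. ALAS1, the first enzyme of haem synthesis, kept a difference of 0.46 both over 16 and over 14 birds, with 7.86 in A4 and 7.96 in E4 as its highest livers and 6.64 in A3 inside the lower range.

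Of 10 measured core clock genes, 9 were lower in the upper block, 5 of them at an unadjusted p under 0.05 beside 14.9% of all features, and the median was -0.31. Over 14 birds 8 of 10 were lower, 2 at an unadjusted p under 0.05 beside 4.42% of all features, and the median was -0.16. By diet the median was -0.05 in A, -0.20 in E, -0.45 in F and -0.75 in H. CRY1, a repressor of the clock, had 7.31, 8.23 and 8.58 as lowest, median and highest signal above 25 and 8.42, 8.64 and 8.91 up to 25. H3 and H4 were its 2 lowest livers at 7.31 and 7.38. The difference was -0.54 ± 0.13 over 16 birds and -0.32 ± 0.09 over 14, the same sign in each diet.

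NFIL3, a repressor that acts on clock outputs, differed by -0.93 ± 0.25 over 16 birds and -0.67 ± 0.28 over 14. It ran from 7.64 to 9.49 in the upper block and from 8.47 to 10.90 in the lower, with A2 the highest liver. RORA, an activator of ARNTL, was at 4.52 in H3 and 5.62 in H4 and at 6.08 to 7.45 in the other 14 livers, where the blocks overlapped, and its difference went from -0.79 ± 0.26 over 16 birds to -0.46 ± 0.23 over 14. PER2, the other arm of the repressor pair, was at 5.83 and 5.28 in H3 and H4 and at 6.91 or above elsewhere, and its difference of -0.71 ± 0.28 over 16 birds became -0.22 ± 0.21 over 14. CLOCK differed by -0.46 ± 0.18 and -0.28 ± 0.19, but by 0.38 in diet E.

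The partners of CLOCK differed less. ARNTL differed by -0.17 ± 0.13 over 16 birds, -0.10 without F4 and -0.06 over 14, with 0.10 in diet A and 0.30 in E against -0.58 in F and -0.49 in H. NPAS2, which can take the place of CLOCK, differed by -0.01 ± 0.14 and had 0.03 over 14 birds. TEF and HLF, output factors of the clock, differed by -0.10 ± 0.09 and -0.13 ± 0.08, and by -0.06 and -0.11 over 14 birds. Without E3, TEF differed by -0.07. BHLHE40, a repressor, was the member that was higher, by 0.21 ± 0.15 over 16 birds, 0.12 without H4 and 0.04 over 14, with 0.72 in diet H and -0.40 in E. No hour of sampling was given in the labels used here.

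Splicing factor genes were lower for 28 of 33, 14 at an unadjusted p under 0.05 beside 14.9% of all features. At that threshold 3 were higher, a smaller share than the 16.7% of all features. Over 14 birds 25 were lower, 2 of them at an unadjusted p under 0.05 beside 4.42% of all features. At that threshold 3 were higher beside 5.63%. The median was -0.24 over 16 birds and -0.08 over 14, and by diet it was 0.00 in A, 0.07 in E, -0.30 in F and -0.77 in H. Without H2 the median was -0.15. The 3 higher at that threshold over 16 birds were SNRNP200, PRPF8 and SF3A1, which belong to the large core particles of the spliceosome. They differed by 0.53 ± 0.12, 0.39 ± 0.10 and 0.36 ± 0.09 over 16 birds and by 0.41, 0.32 and 0.30 over 14. PRPF4B, a kinase of the spliceosome picked after its values were seen, ran the other way at -0.88 ± 0.24 over 16 birds and -0.54 over 14, with -0.05 in diet E and -1.89 in diet H.

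DNA replication and mitosis genes had the lowest median of the lists, -0.32, with 48 of 53 lower. At an unadjusted p under 0.05, 6 were lower, a smaller share than the 14.9% of all features, and over 14 birds 0 were, with 45 of 53 lower and a median of -0.20. The list's level varied from bird to bird in both blocks. Its median deviation was 1.14 in E2 and 0.88 in H2 of the lower block but 0.62 in A4 of the upper block, while F1 at -0.64 was the lowest of the 16. By diet the median was 0.30 in A, -1.01 in E, 0.03 in F and -0.68 in H. Without A4 the list's median was -0.49, and without H2 it was -0.18.

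MKI67, the proliferation marker Ki-67, showed the same spread. It ran from 4.40 to 8.31 in the upper block, where A4 lay far above the others, and from 5.36 to 8.72 in the lower. The difference was -1.40 ± 0.56 over 16 birds and -0.94 ± 0.66 over 14. SMC4, a subunit of condensin, differed by -0.90 ± 0.32 over 16 birds and -0.66 over 14, and CENPF, a kinetochore protein, by -0.53 ± 0.17 and -0.40. BUB3, of the spindle checkpoint, differed by -0.32 ± 0.13 and -0.24, and E2F8, a transcription factor of the cell cycle, by -0.73 ± 0.33 and -0.60.

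Interferon response genes were lower for 23 of 34, 15 at an unadjusted p under 0.05 beside 14.9% of all features, with a median of -0.19. Over 14 birds 25 of 34 were lower, 7 at an unadjusted p under 0.05 beside 4.42% of all features, with a median of -0.15. By diet the median was -0.02 in A, -0.42 in E, -0.05 in F and -0.51 in H. E2 was the highest bird at 0.61, and without it the median of the list was -0.05. The antiviral genes with the largest block differences were picked after their values were seen.

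DDX60, a helicase that aids the sensing of viral RNA, had the largest difference of all 11528 genes, -1.93 ± 0.41 (SE), or 3.81-fold, with an adjusted p of 0.0615 in limma. Its lowest, median and highest signals were 6.72, 8.71 and 9.94 in the upper block and 9.20, 10.22 and 11.44 in the lower. It was lower in every diet, by -1.23 in A, -1.07 in E, -2.52 in F and -2.90 in H, and by -1.61 ± 0.42 over 14 birds. IFIT5, which binds viral RNA ends, ran from 6.84 to 10.57 in the upper block and from 9.35 to 11.83 in the lower, with a difference of -1.61 ± 0.46 over 16 birds and -1.09 ± 0.44 over 14. MX1, the interferon-induced GTPase, differed by -1.46 ± 0.45 and -1.09 ± 0.47, and by only -0.18 in diet A. EPSTI1 and SAMD9L, also induced by interferon, differed by -1.06 ± 0.30 and -1.24 ± 0.40 over 16 birds and by -0.78 and -0.75 over 14. H4 was the lowest of 16 livers for DDX60, IFIT5, MX1, EPSTI1 and SAMD9L.

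**Figure D5:**
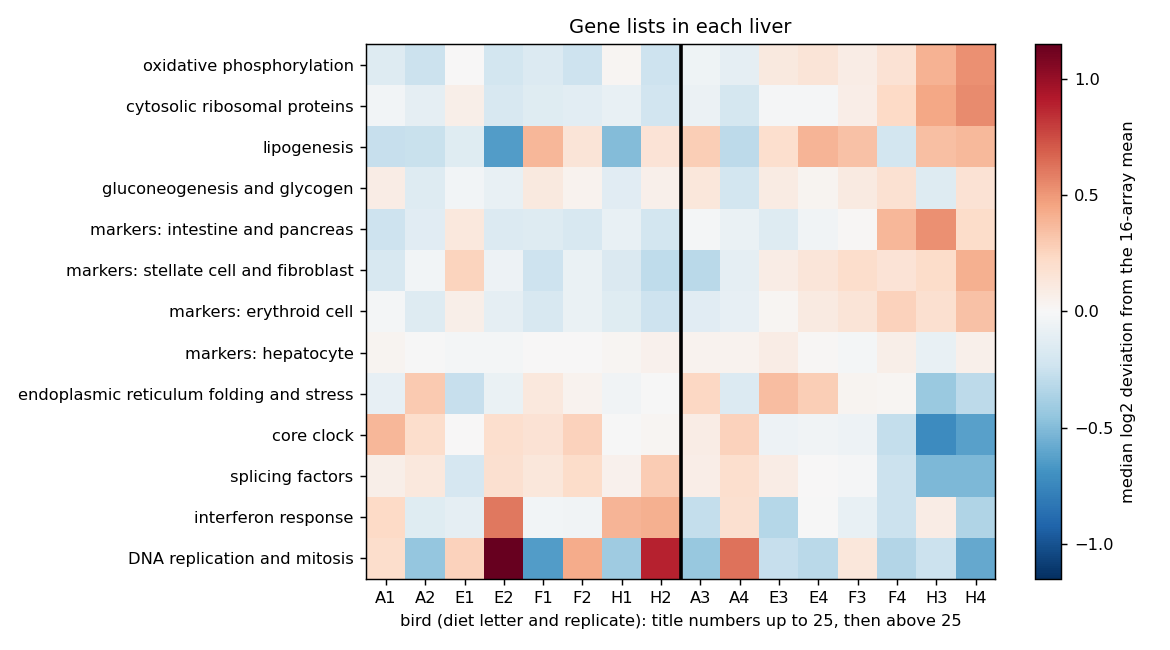
Median log2 deviation from the mean of 16 arrays (colour scale, red above and blue below) of the genes of 13 lists (rows) in each liver (columns, diet letter with replicate). The black line parts title numbers up to 25 on the left from those above 25 on the right; oxidative phosphorylation runs from -0.24 on the left to 0.52 in H4 on the right, and the row of DNA replication and mitosis changes from bird to bird within both blocks.

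The growth hormone and insulin-like growth factor list had a median of -0.17 over 16 birds and -0.02 over 14, with 12 and 10 of 18 genes lower. IGFALS, described above, was its only member with separate blocks. IGF1, the growth factor that IGFALS holds in the blood, ran the other way at -0.88 ± 0.26 over 16 birds and -0.57 ± 0.27 over 14, as seen after the values were known. Its lowest, median and highest signals were 8.30, 9.38 and 10.61 in the upper block and 9.35, 10.29 and 10.62 in the lower. By diet it was -0.27 in A, -0.04 in E, -1.41 in F and -1.80 in H. JAK2, the kinase of the growth hormone receptor, and IGF2 were also picked after their values were seen. JAK2 differed by -0.59 ± 0.17 over 16 birds and -0.37 over 14, and IGF2 by -0.40 ± 0.12 and -0.32.

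Among all genes, a difference over 1 on the log2 scale was found for 5 higher and 20 lower over 16 birds. Over 14 birds it was found for 3 higher and 6 lower. These counts include genes described above, and the others given here were likewise seen after the fit. ANKRD9 differed by 1.34 ± 0.36 over 16 birds and 1.22 ± 0.44 over 14, with the same sign in each diet, although A4 at 7.41 lay among the lowest of the 16. CHAC1, which breaks down glutathione and rises with amino acid shortage in mammals, differed by 1.21 ± 0.37 and 1.18 ± 0.45 and had an upper median of 8.52 against 6.75 in the lower block. ANGPTL4, a fasting-induced inhibitor of lipoprotein lipase, differed by 1.06 ± 0.56 over 16 birds and 0.68 ± 0.66 over 14, and by 2.15 in diet E and 2.21 in diet H but by 0.28 in A and -0.38 in F.

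GIMAP6, a GTPase of lymphocytes, was at 8.71 to 9.16 in the upper birds of diets E, F and H and at 6.80 and 6.64 in A3 and A4. In the lower block it was at 8.23 and 8.54 in A1 and A2 and at 8.62 in F2, against 6.50 to 7.06 in the other 5 birds. Its within-diet differences were -1.67 in A, 2.07 in E, 1.47 in F and 2.13 in H, and its interaction had an adjusted p of 0.0859 in limma. SERPINA10, a plasma inhibitor of clotting proteases, differed by -1.10 ± 0.24 over 16 birds and -0.79 over 14, with -0.07 in diet E and -2.02 in H. LIPC, hepatic lipase, differed by -1.03 ± 0.34 and -0.80. PRMT1, an arginine methyltransferase, differed by -1.03 ± 0.23 and -0.86 and was at 4.46 to 5.74 in the upper block and 5.08 to 6.59 in the lower.

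Some lists of markers of other cell types differed between the blocks, more in diets F and H than in A and E. Their part in the results above was not tested. In tissue RNA, fewer cells of a type and less RNA per cell cannot be told apart. Intestine and pancreas markers were higher for 23 of 27 measured, beside 55.2% of all genes, with a median of 0.27 over 16 birds and 0.14 over 14. By diet the median was 0.11 in A, -0.07 in E, 0.38 in F and 0.63 in H. At an unadjusted p under 0.05 in limma, 8 were higher over 16 birds, beside 16.7% of all features. Over 14 birds 1 was, beside 5.63%. Their mean signal was 5.01 to 5.82 in the upper block and 4.88 to 5.30 in the lower. Of these markers, 9 had a mean signal under 4.33, the 20th percentile over all features: FABP2, GCG, INS, LCT, MUC2, PLA2G1B, PNLIPRP1, SI and SLC15A1. CPB1, a pancreatic carboxypeptidase, was at 6.92 in F4, 5.35 in H3 and 5.06 in F3 and between 3.98 and 4.55 in the other 13 livers. Its difference was 0.70 ± 0.28 over 16 birds, 0.70 ± 0.33 over 14 and 0.43 without F4. CDX2, an intestinal transcription factor, was highest in H3 at 5.39 and differed by 0.46 and 0.29 over 16 and 14 birds, and ANPEP, which hepatocytes also carry on the bile canaliculus, differed by 0.34 ± 0.14 and 0.24.

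Erythroid markers were higher for 15 of 17, with medians of 0.17 and 0.13 over 16 and 14 birds. Their mean signals were up to 6.55 in the upper block against 5.90 to 6.21. By diet the median was -0.04 in A, 0.10 in E, 0.42 in F and 0.46 in H. At an unadjusted p under 0.05 in limma, 3 were higher over 16 birds and 3 over 14, beside 16.7% and 5.63% of all features. The haemoglobin genes HBAD and HBA1, picked after their values were seen, differed by 0.95 ± 0.25 and 0.81 ± 0.25 over 16 birds. They differed by 0.65 and 0.52 over 14 birds, and by -0.34 and -0.47 in diet A against 1.84 and 1.67 in diet H. Stellate cell and fibroblast markers were higher for 20 of 28, with medians of 0.23 and 0.13 and mean signals of 7.25 to 7.91 against 7.29 to 7.79. By diet the median was -0.10 in A, 0.05 in E, 0.26 in F and 0.57 in H. At that threshold 10 were higher and 3 lower over 16 birds, and 2 were higher and 2 lower over 14. Within this list, COL6A1 and PDGFRB, picked after their values were seen, differed by 0.52 ± 0.17 and 0.49 ± 0.14. LUM, POSTN and MMP2, picked in the same way, differed by -0.60 ± 0.19, -0.83 ± 0.29 and -0.50 ± 0.14. Over 14 birds these 5 differed by 0.30, 0.35, -0.44, -0.87 and -0.58. Endothelial markers had a median of 0.18, and 0.11 without F2, and 14 of 21 were higher. Their mean signals were 7.61 to 7.71 against 7.53 to 7.70. By diet the median was 0.03 in A, 0.02 in E, 0.27 in F and 0.20 in H.

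Immune cell markers had medians of 0.01 to 0.20 over 16 birds. B and plasma cell markers were higher for 10 of 11, with a median of 0.20 and mean signals of 5.90 to 6.33 against 5.76 to 6.15. By diet their median was 0.05 in A, 0.03 in E, 0.35 in F and 0.45 in H. T and NK cell markers had a median of 0.11, and 0.03 without F3, with mean signals of 6.09 to 6.54 against 6.02 to 6.72, and CTLA4 was the only dim one of 22. Heterophil and thrombocyte markers had a median of 0.15 over 16 birds, 0.06 without H3 alone, 0.28 without E1 and 0.02 over 14. By diet it was 0.01 in A, -0.10 in E, 0.35 in F and 0.58 in H. Their mean signals were 5.97 to 6.67 against 5.83 to 6.59. Macrophage markers had a median of 0.01 and mean signals of 8.85 to 9.23 against 9.02 to 9.25. Bile duct markers had a median of -0.12, with 8 of 15 lower, and -0.01 without H4, and mean signals of 6.45 to 6.71 against 6.33 to 6.81. KRT8, which hepatocytes carry too, was among the 7 of these that were higher. The hepatocyte markers themselves had a median of 0.11 over 16 birds and 0.03 over 14, and 0.06 without E1, with 7 of 13 higher, a share near the 55.2% of all genes.

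The block difference of a gene went with its genomic span, the distance from its start to its end in the reference annotation. Across 11030 genes with a span, Spearman's rho was -0.356 over 16 birds and -0.276 over 14, as a description across genes that are not independent. By diet rho was -0.137 in A, 0.071 in E, -0.357 in F and -0.374 in H. The median span was 3392 bases for cytosolic ribosomal proteins and 3342 for oxidative phosphorylation, against 38070 for the core clock and 16340 for all genes. Other lists that were higher varied in median span. It was 5451 for intestine and pancreas markers, 6309 for B and plasma cell markers, 8703 for the xenobiotic list and 8842 for erythroid markers. For lipogenesis it was 17834, for stellate cell and fibroblast markers 25606 and for endothelial markers 27775. With the trend on span taken out, the median of cytosolic ribosomal proteins went from 0.23 to 0.03. That of the 48 oxidative phosphorylation genes with a span went from 0.30 to 0.11, and lipogenesis from 0.37 to 0.21. The core clock went from -0.31 to -0.21 and splicing factors from -0.24 to -0.27. Over members with a span, stellate cell and fibroblast markers stayed at 0.23, while intestine and pancreas markers went from 0.27 to 0.18. Heterophil and thrombocyte markers went from 0.14 to -0.02, T and NK cell markers from 0.11 to -0.02 and hepatocyte markers from 0.11 to -0.05. B and plasma cell markers went from 0.20 to 0.15, endothelial markers from 0.18 to 0.15 and erythroid markers from 0.17 to 0.11. The xenobiotic list went from 0.21 to 0.10. The part of span in these differences was otherwise not tested.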

How the data were processed

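Livers of 16 male broilers were measured on 1-colour Affymetrix arrays with a biotin label and the Ambion WT Expression Kit, per the labels' protocols. The authors deposited log2 signals, 1 column per bird. The submitters' processing notes name GCOS 1.1.1, while the way of background correction, summarization and normalization was not given in the sources used here. Over all 16 arrays, the values held 20804 features and 0 missing values, and array medians lay close. The array SD was 2.10 to 2.21, so the deposited values did not have identical distributions. Whether distributions were made equal at an earlier step cannot be told from this. A limited number of arrays sets the precision.

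Gene names came from the platform annotation: 12300 features had 1 symbol, 256 several and 8248 none, 11727 matched a RefSeq gene, and 776 of 1116 list genes were measured. For each gene the feature with the highest mean was used. Genomic spans were those of RefSeq genes, whose build may differ from that of the array.

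Differences were fitted on the deposited log2 values with limma 3.58.1 in R 4.3.3 (lmFit and eBayes, diet and title block as terms), with Benjamini-Hochberg adjustment over all 20804 features and a threshold of 0.05, and again without title numbers 46 and 47. Diet by block interactions were fitted on 8 means. Array measures were compared by exact permutation within diets. The fits were also run on simulated data with noise drawn separately for each feature. That check does not cover variation shared across features, such as that of the first principal component. Named genes had 1 symbol and a mean above 4.33, the 20th percentile: the 12 smallest p in each direction over 16 birds, 6 over 14, and 6 for the interaction. Every measured core clock gene was also named. From each of the 6 lists with the largest medians in either fit came 4 members, those with the smallest p in the direction of the list's median. Members of these lists that went the other way could not be picked by this rule. Others are marked as chosen after their values were seen. The members and lists were chosen with earlier results of these data known. Alternatives were no diet term, quantile normalization, trend and robust eBayes, array weights, bright features only, a genomic span correction and leaving out each bird.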

Additional observations from a re-analysis of the deposited data

Results flagged for a closer look

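Among the sets of 8 birds compared, 12 (5.56%) held a bird whose gap to the next was large for the range of its block, close to the 5% that chance gives. E1 stood out most often within the lower block: on the first principal component (29.2), in the SD of its array (2.10), in UQCRQ (7.35) and CDX2 (4.69), and in the median deviation of the B and plasma cell (0.25), intestine and pancreas (0.12) and stellate cell and fibroblast markers (0.26). H2 stood out for the T and NK cell markers at 0.41. In the upper block, A4 stood out for MKI67 at 8.31 and PPP1R3B at 9.60, F4 for CPB1 at 6.92, and H3 on principal component 3 at -34.2.

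The interaction test called MGP, at adjusted p = 0.0254 in limma, and SF3B5, at 0.0364. Neither call was stable. Over diets A, E and F the adjusted p in limma was 0.0945 for MGP and 0.407 for SF3B5. Most omissions of a single bird took each gene above 0.05. For 4 of the 35 lists, both upper birds of 1 diet lay above their lower birds, and both of another diet lay below theirs. With so few birds per diet and block, such a separation can also arise by chance. How many of the 35 lists chance alone would give was not worked out. The difference between diets was not tested, so these 4 lists are a description only. Endoplasmic reticulum folding and stress genes differed by 0.44 in diet E, -0.053 in F and -0.30 in H. Fatty acid oxidation and fasting genes differed by 0.15 in diet E, -0.24 in F and -0.39 in H. Macrophage markers differed by -0.25 in diet E and 0.22 in F, and proteasome genes by -0.056 in diet A and 0.081 in E.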

How the results depend on the processing

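With diet as a term over 16 birds, limma called 0 features, and also 0 without a diet term, with quantile normalization, with trend and robust eBayes, without title numbers 46 and 47, and in diets A and E only, the last chosen after seeing the data. It called 872 when only features above the 20th percentile were tested, 4580 with 8 means, 5111 with array weights, and 0 to 6427 when 1 bird was left out, the highest without E1. The span correction tested only the 11727 features with a genomic span and called 987, against 1250 on the same features without it, an alternative added after seeing the data. The 6566 features at an unadjusted p under 0.05 became 4403 on the features with a span and 4019 with the trend taken out, 2092 without 46 and 47, 948 in diets A and E only, and 4560 to 9613 over single omissions. Over 14 birds the calls were 0 in every alternative run, while the 2092 features at an unadjusted p under 0.05 became 3168 without a diet term, 5328 with array weights and 1332 to 4987 over single omissions, the lowest without F2 and the highest without E1. The 2 interaction calls became 1 in diets A, E and F, 19 with trend and robust eBayes, and 0 to 3433 over single omissions, the highest without E2.

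The direction of some named genes turned: SF3B5 to -0.23 without 46 and 47 and -0.12 with the span trend taken out, IPO13 to -0.040 without 46 and 47, and NPAS2 to 0.029 without 46 and 47, 0.014 with quantile normalization, 0.093 with the span trend taken out and -0.078 to 0.071 over single omissions. The cause was not tested. Of the other values, 176 gene values passed the threshold, 86 list medians moved by more than the SD between birds, and 1887 values stayed. For genes, staying meant the same direction and side of the threshold. For list medians it meant a shift within that SD, whatever the sign. No paired analysis was possible because the labels used here link no upper-block bird to a lower-block bird. With 2 birds per diet and block, within-diet differences have little precision, and signal over background was not given.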
